A study of Mus musculus with 12 samples.

Results

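Genes of the striated muscle sarcomere and of excitation-contraction coupling are described here in cultured adipocytes that carry wild-type or mutant PPARγ. The set holds 42 genes of the 55573 in the count table, taken by gene symbol, and all 42 symbols were found. The genes were chosen by their read counts in these same 12 libraries, where they rose together from WT to mutant, so differences between genotypes among the 42 genes are given as a description, and calls made on them below are no independent test. By fibre type the set holds 4 developmental genes (Myh3, Myh8, Myl4, Actc1), 6 slow genes (Myh7, Tnnt1, Tnni1, Tnnc1, Mybpc1, Casq2) and 13 fast genes (Myh1, Myh2, Myh4, Mylpf, Myl1, Mylk2, Tnnt3, Tnni2, Tnnc2, Mybpc2, Actn3, Atp2a1, Casq1). The other 19 genes are shared by fibre types (Acta1, Actn2, Mybph, Ttn, Neb, Des, Ckm, Ryr1, Cacna1s, Cacng1, Trdn, Myom1, Myom2, Tcap, Ldb3, Smpx, Klhl41, Xirp1, Chrna1).

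The cells were the stromal vascular fraction (SVF) of subcutaneous white adipose tissue of C57BL/6 mice, differentiated into adipocytes in culture. The mice carried on both alleles either unchanged PPARγ (WT) or a CRISPR-Cas9 knock-in present throughout the body, T166A (TA), where threonine 166 is replaced by alanine, or T166D (TD), where it is replaced by aspartate to mimic phosphorylation. All groups received the same induction medium for 4 days, with indomethacin at 125 nM, IBMX at 0.5 mM, insulin at 850 nM, triiodothyronine at 1 nM and dexamethasone, given as 5 mM in the labels and 5 μM in the methods, and were harvested on day 8. Each genotype had 4 libraries, and nothing in the labels says whether these came from separate mice or separate cultures, so p-values measure only the spread between these samples, which may be technical.

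The sarcomere is the contractile unit of striated muscle. Thick filaments of myosin heavy chains, each with light chains, pull on thin filaments of actin that carry the troponin complex, and titin, nebulin, the Z-disc and the M-band hold both filaments in register. Excitation-contraction coupling links an electrical signal at the muscle membrane to release of calcium from the sarcoplasmic reticulum through the ryanodine receptor, and the pump SERCA returns the calcium. Muscle fibres express different heavy chain genes as they form and mature, first the embryonic and perinatal genes Myh3 and Myh8 and later the slow gene Myh7 or the fast genes Myh2, Myh1 and Myh4. White adipose tissue is not known as a site of sarcomeres, and the smooth muscle and non-muscle forms of actin and myosin in its other cells are encoded by other genes.

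Total counts per library were 18823619 to 20324286 in WT, 16950175 to 18182526 in TA and 16553324 to 18357864 in TD. Levels are given as counts or as CPM (counts per 1000000 counts of the normalized library size). Libraries of a genotype were farther apart than counting error in each of 18 pairs (chi-square per degree of freedom 4.95 to 38.7). The 10 adipocyte markers listed were present in each library, with a summed level of 15702 to 18565 CPM in WT, 15584 to 21299 in TA and 10301 to 12461 in TD. A base change in Pparg does not show in gene counts, so the genotype labels could not be checked here.

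The regulatory sequence in front of 7 members is shown first because 5 of the heavy chain genes stand in a single cluster on chromosome 11, and 4 of these (Myh3, Myh1, Myh4 and Myh8) had their highest counts in TD replicates 3 and 4, while the fifth, Myh2, was too scarce to follow. From 67078300 (Myh3) to 67308634 (the end of Myh8) the order is Myh3, Myh2, Myh1, Myh4 and Myh8, all on the plus strand of GRCm38. Each line gives bases before the RefSeq start of transcription (build GRCm38.p6), 5′ to 3′ on the strand of the gene. Myh1 is cut where a longer GENCODE transcript begins, so its line holds the first 200 of its 250 bases. The part left out holds TATAAA at -32 and GGAATG at -16, and positions are counted from the RefSeq start. Capitals mark matches to CAGCTG and CACCTG (or its complement CAGGTG), both E-box letters read by myogenic bHLH factors, to CATTCC (or GGAATG, read by TEAD factors), to TATAAA (or TTTATA), and to the MEF2 and CArG patterns. The regions are chr11:67078050-67078299 for Myh3, chr11:67276874-67277123 for Myh8, chr11:67199852-67200051 for Myh1 and chr11:67237562-67237811 for Myh4 on the plus strand. For Acta1 the region is chr8:123894776-123895025 and for Chrna1 chr2:73580339-73580588, both on the minus strand, and for Tnnc1, shown because its level hardly differed between genotypes, chr14:31208062-31208311 on the plus strand.
Myh3: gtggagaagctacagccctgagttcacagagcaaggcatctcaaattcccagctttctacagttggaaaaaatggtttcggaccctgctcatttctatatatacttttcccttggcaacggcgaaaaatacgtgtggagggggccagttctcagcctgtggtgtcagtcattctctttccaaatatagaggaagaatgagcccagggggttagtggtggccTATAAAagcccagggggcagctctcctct
Myh8: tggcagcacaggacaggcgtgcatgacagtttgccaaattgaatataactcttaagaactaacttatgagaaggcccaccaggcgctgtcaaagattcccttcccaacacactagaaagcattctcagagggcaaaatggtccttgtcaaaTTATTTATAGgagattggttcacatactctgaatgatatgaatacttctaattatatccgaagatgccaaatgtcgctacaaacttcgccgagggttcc
Myh1: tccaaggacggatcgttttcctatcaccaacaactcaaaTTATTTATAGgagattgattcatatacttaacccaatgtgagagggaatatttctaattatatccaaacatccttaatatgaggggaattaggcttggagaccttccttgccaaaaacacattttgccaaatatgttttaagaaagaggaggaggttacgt
Myh4: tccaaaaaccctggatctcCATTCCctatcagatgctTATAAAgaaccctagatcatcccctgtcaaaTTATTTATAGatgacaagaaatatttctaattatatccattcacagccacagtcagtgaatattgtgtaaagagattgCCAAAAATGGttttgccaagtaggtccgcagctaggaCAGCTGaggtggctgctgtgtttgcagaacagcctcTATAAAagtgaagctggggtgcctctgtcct
Acta1: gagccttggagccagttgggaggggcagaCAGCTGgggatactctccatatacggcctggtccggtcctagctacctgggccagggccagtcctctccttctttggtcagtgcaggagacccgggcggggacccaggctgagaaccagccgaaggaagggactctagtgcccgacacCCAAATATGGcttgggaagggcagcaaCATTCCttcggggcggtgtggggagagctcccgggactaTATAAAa
Chrna1: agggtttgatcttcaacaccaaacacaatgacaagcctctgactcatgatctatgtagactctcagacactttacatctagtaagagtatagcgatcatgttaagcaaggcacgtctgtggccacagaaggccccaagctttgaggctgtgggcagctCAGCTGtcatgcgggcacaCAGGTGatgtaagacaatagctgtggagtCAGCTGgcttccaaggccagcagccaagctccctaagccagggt
Tnnc1: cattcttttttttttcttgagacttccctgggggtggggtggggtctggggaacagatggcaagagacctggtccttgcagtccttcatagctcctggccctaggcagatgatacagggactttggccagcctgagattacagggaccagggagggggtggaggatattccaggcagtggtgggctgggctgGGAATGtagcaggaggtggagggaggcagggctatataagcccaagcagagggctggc

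The windows of Myh1, Myh4 and Myh8 each held the same MEF2 match, TTATTTATAG, in which a TTTATA match overlaps. It began at position -211 in Myh1, -182 in Myh4 and -99 in Myh8, counted from the start of transcription. Around it Myh1 and Myh8 shared a run of 22 bases, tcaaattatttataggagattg. A second run, aatatttctaattatatcca, of 20 bases was shared by Myh1 and Myh4, and Myh2 shared 21 bases with each of them. The longest run that Myh3 shared with any of the other 4 genes was 11 bases. RefSeq windows of 300 bases, 250 before and 50 after the start, were matched for 32 of the 42 genes (35 windows). CAGCTG was found in 42.9% of the 35 windows and in 16.3% of all 32851 windows, CACCTG in 28.6% and 20.2%, CATTCC in 28.6% and 14.7%, and TATAAA in 28.6% and 13.6%. The MEF2 pattern was found in 17.1% and 3.19%, and the CArG pattern, read by serum response factor, in 17.1% and 1.63%. Matches were searched on both strands and are a description of the letters only.

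The 42 genes together took 504 to 752 counts in a WT library, 998 to 2697 in TA and 949 to 11322 in TD, at most 0.0617% of a library's counts. Summed CPM was 39.0, 27.7, 25 and 35.9 in WT replicates 1 to 4, 58.4, 166, 90.8 and 63.6 in TA, and 53.9, 169, 603 and 354 in TD. Every TA and TD library thus lay above every WT library, TD replicate 1 lay below every TA library, and TD replicates 3 and 4 lay above all others. All 42 genes had their highest mean in TD, and in 40 the means ran from TD through TA to WT, the exceptions being Myh7 and Mylk2. TD replicate 3 was the highest of the 12 libraries for 39 genes, TD replicate 1 the lowest TD library for 40, and TA replicate 2 the highest TA library for 36. In bulk RNA, more muscle-like cells in a culture and more of this RNA in each cell cannot be told apart.

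**Figure D1:**
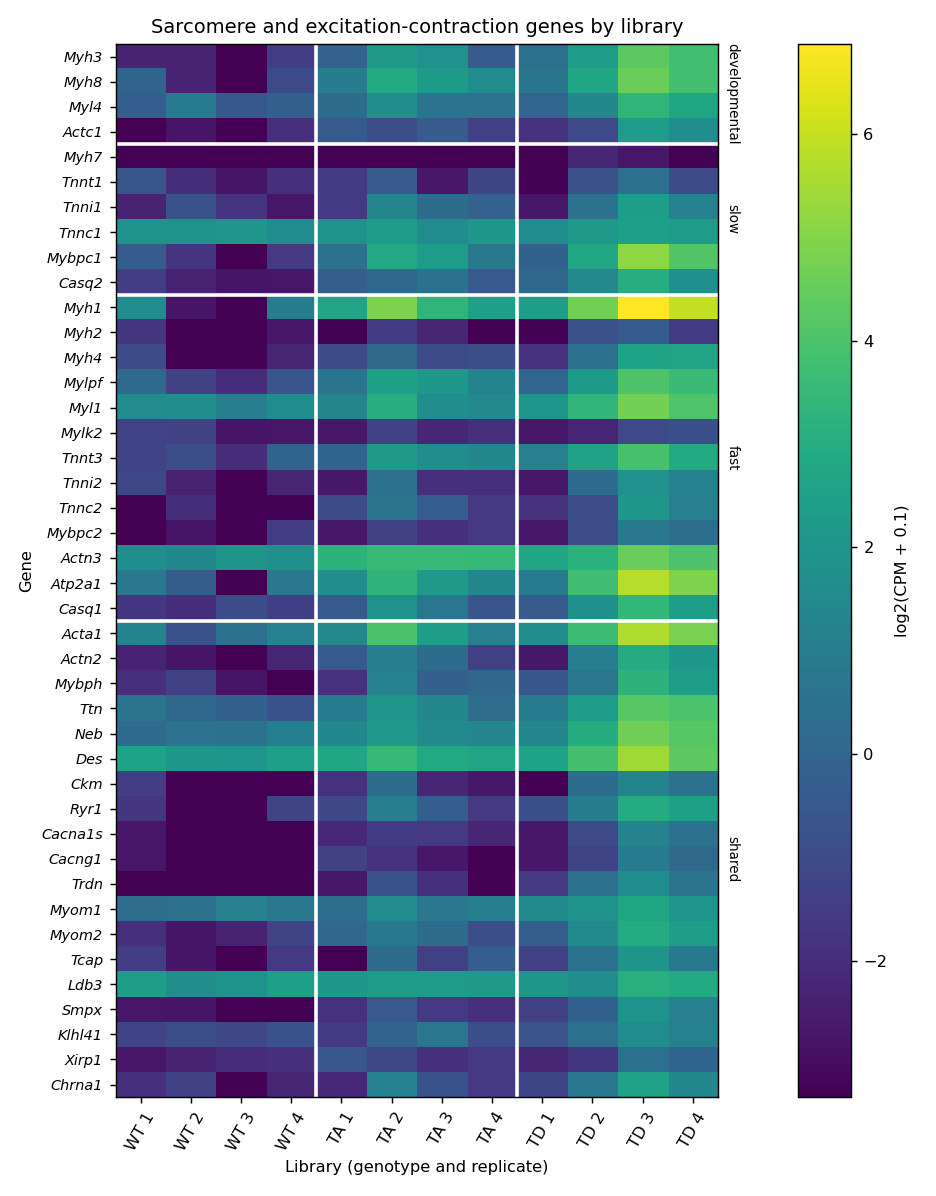
Heat map of the level of all 42 genes (rows, by fibre-type class) in the 12 libraries (columns), as log2 of CPM plus 0.1. TD replicates 3 and 4 are brightest for most genes, TA replicate 2 stands out within TA and TD replicate 1 resembles the lower TA libraries, while Tnnc1 and Ldb3 keep nearly 1 colour.

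Thick filament genes were led by the fast heavy chain Myh1. It had 57, 1, 0 and 35 counts in WT replicates 1 to 4, 103, 475, 180 and 95 in TA and 92, 481, 2202 and 1045 in TD. The WT libraries did not overlap those of TA or TD, and the TD libraries ranged from about the lowest TA library to above the highest. The log2 fold change was 5.44 (SE 0.94) in TD over WT and 3.37 (SE 0.98) in TA over WT, 2 comparisons that share the WT libraries. The embryonic heavy chain Myh3 had 2, 2, 0 and 5 counts in WT, 14, 71, 62 and 12 in TA and 22, 89, 367 and 234 in TD. The perinatal heavy chain Myh8 had 17, 2, 0 and 7 counts in WT, 32, 121, 83 and 54 in TA and 26, 121, 447 and 243 in TD. Both genes were without overlap between WT and either mutant, and their log2 fold changes in TD over WT were 6.32 (SE 0.97) and 5.07 (SE 0.82).

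The other heavy chains were scarce. The fast gene Myh4 had 8, 0, 0 and 2 counts in WT, 7, 17, 7 and 8 in TA and 3, 23, 112 and 104 in TD, so that TD replicate 1 fell within the WT range. The fast gene Myh2 had 4, 0, 0 and 1 counts in WT, 0, 4, 2 and 0 in TA and 0, 9, 13 and 4 in TD, and it did not pass the filter on low counts. The slow heavy chain Myh7, which the heart also expresses, had no count in any WT or TA library and 0, 2, 1 and 0 in TD. A count of 0 allows up to 3 counts in a library, and such limits cover counting error only. Heavy chain genes are close paralogs, and reads that fit more than 1 of them could have been split or dropped in counting.

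Of the myosin light chains, the fast regulatory chain Mylpf had 20, 6, 3 and 10 counts in WT, 24, 88, 77 and 42 in TA and 16, 80, 303 and 208 in TD. The fast essential chain Myl1 had 56, 66, 40 and 55 counts in WT, 41, 131, 55 and 48 in TA and 70, 192, 505 and 286 in TD. Myl1 was thus clearly present in WT, overlapped it in TA and was above it in every TD library, with a log2 fold change of 2.37 (SE 0.47) in TD over WT and 0.52 (SE 0.49) in TA over WT, which was -0.05 without TA replicate 2. The embryonic and atrial chain Myl4 had a mean of 0.969 ± 0.551 CPM (SD, n = 4) in WT, 1.79 ± 0.990 in TA and 4.93 ± 4.08 in TD, with overlap in both comparisons. The slow myosin binding protein Mybpc1 had 13, 4, 0 and 4 counts in WT, 23, 113, 85 and 29 in TA and 14, 123, 659 and 293 in TD. It lay above WT in every mutant library after scaling to library size, with log2 fold changes of 5.75 (SE 1.00) in TD and 3.72 (SE 1.08) in TA. Mybph, a related protein, had 0 to 6 counts in WT and 10 to 180 in TD, but 49.9% of its exon bases overlap Adora1 on the other strand, which had a mean of 2000 counts. Mybpc2 (0 to 5 counts in WT, 1 to 30 in TD) and the kinase Mylk2 (1 to 6 and 1 to 8 counts) did not pass the filter.

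Thin filament genes followed the same libraries. Skeletal actin, Acta1, had 45, 10, 25 and 40 counts in WT, 46, 246, 91 and 37 in TA and 54, 231, 944 and 484 in TD. Its TD libraries lay above WT and its TA libraries overlapped WT, with log2 fold changes of 3.92 (SE 0.76) and 1.99 (SE 0.79), the second of which was 1.07 without TA replicate 2. Cardiac actin, Actc1, which skeletal muscle expresses as it forms, had 0, 1, 0 and 3 counts in WT, 11, 7, 12 and 5 in TA and 3, 7, 92 and 53 in TD. In this gene TA libraries were above TD replicate 1 and close to TD replicate 2. Neb, the nebulin that spans the thin filament, had 21 to 37 counts in WT, 44 to 73 in TA and 44 to 474 in TD, without overlap between WT and either mutant.

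The troponin complex places calcium control on the thin filament and has separate genes for fast and slow fibres. Fast troponin T, Tnnt3, had 6, 9, 3 and 16 counts in WT, 15, 70, 55 and 45 in TA and 37, 108, 278 and 127 in TD. All TA and TD libraries exceeded WT once scaled to library size, with log2 fold changes of 2.59 (SE 0.63) and 4.08 (SE 0.60). Slow troponin T, Tnnt1, had 11, 3, 1 and 3 counts in WT, 4, 10, 1 and 6 in TA and 0, 9, 23 and 7 in TD, with overlap throughout. Per kilobase of exon the level of Tnnt3 in TD was 4.76 ± 3.37 CPM and that of Tnnt1 was 0.24 ± 0.23. Slow Tnni1, an inhibitory subunit, had 2, 10, 4 and 1 counts in WT, 4, 39, 20 and 15 in TA and 1, 24, 94 and 37 in TD, and fast Tnni2 had 0 to 7, 1 to 22 and 1 to 66. These subunits were nearer each other, at 1.13 ± 0.99 CPM per kilobase for fast Tnni2 and 0.59 ± 0.58 for slow Tnni1, which differ by less than their spread.

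The calcium-binding subunits parted. Slow and cardiac troponin C, Tnnc1, had 68, 74, 78 and 55 counts in WT, 63, 78, 54 and 77 in TA and 53, 81, 101 and 84 in TD. Its log2 fold change in TD over WT was 0.33 (SE 0.20), the smallest of the 33 genes that passed the filter, and the ratio of TD replicate 3 to TD replicate 1 was 1.79, the smallest of the 38 genes with a count in TD replicate 1. Fast troponin C, Tnnc2, had 0, 3, 0 and 0 counts in WT, 7, 23, 13 and 4 in TA and 3, 8, 78 and 35 in TD. The ratio of its summed TD counts to the 3 WT counts, per library size, was 44.7 (exact 95% interval for counting error 14.9 to 220). For Tnnc2 74.0% of exon bases overlap Ube2c on the other strand, and the strand setting of the counting is not given in the sources used here.

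The 11 Z-disc, M-band and titin genes together were at 13.0 to 17.5 CPM in WT, 25.6 to 41.5 in TA and 22.9 to 126 in TD. Des, the intermediate filament desmin, which smooth muscle also makes, had 114, 85, 81 and 98 counts in WT, 107, 182, 129 and 111 in TA and 104, 270, 797 and 337 in TD. TD replicate 1 lay within the WT range while every TA library lay above it, and the log2 fold change of 2.08 (SE 0.41) in TD over WT was 1.46 without TD replicate 3. Ttn, whose protein titin spans from Z-disc to M-band, had 27, 20, 16 and 9 counts in WT, 29, 64, 46 and 21 in TA and 30, 91, 354 and 270 in TD. Here TD lay above WT without overlap and TA overlapped it, with log2 fold changes of 3.47 (SE 0.61) and 1.33 (SE 0.65). Its exons span 116825 bases, so a long transcript gave few counts and a level of only 0.088 ± 0.071 CPM per kilobase in TD.

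Actn3, the fast-fibre alpha-actinin of the Z-disc, was measurable in every library and level within TA. It had 59, 52, 76 and 61 counts in WT, 164, 196, 211 and 204 in TA and 113, 169, 439 and 276 in TD. The means were 3.19 ± 0.497 CPM in WT, 11.2 ± 1.10 in TA and 13.8 ± 7.61 in TD, and the log2 fold change was 1.81 (SE 0.31) in TA over WT and 0.30 (SE 0.28) in TD over TA. Its partner Actn2 had 0 to 2 counts in WT, 5 to 32 in TA and 1 to 145 in TD, a spread in TA that Actn3 did not show. Ldb3, a Z-disc scaffold, had 98, 65, 74 and 97 counts in WT, 73, 78, 85 and 80 in TA and 73, 58, 159 and 125 in TD, a log2 fold change of 0.42 (SE 0.26) in TD over WT. The M-band genes differed, Myom1 having 22 to 42 counts in WT and 48 to 118 in TD, and Myom2 1 to 6 and 13 to 142. In Myom1 1.98% of exon bases overlap Myl12a on the other strand, which had a mean of 1852 counts. Tcap, the titin cap, had 0 to 5 counts in WT and 5 to 70 in TD, Klhl41, a sarcomere-associated kelch protein, 6 to 9 and 9 to 56, and Smpx 0 to 1 and 5 to 67. Xirp1, an actin-binding repeat protein, had 1 to 3 counts in WT and 2 to 23 in TD and did not pass the filter.

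The 8 coupling genes together were at 0.446 to 2.54 CPM in WT, 4.17 to 19.5 in TA and 4.49 to 92.8 in TD. Atp2a1, the fast SERCA pump, had 31, 14, 0 and 28 counts in WT, 55, 158, 79 and 44 in TA and 31, 250, 1009 and 515 in TD. The log2 fold change was 4.71 (SE 0.83) in TD over WT and 2.37 (SE 0.88) in TA over WT, without overlap in either after scaling to library size, and 21.9% of its exon bases overlap Rabep2 on the other strand. Ryr1, the skeletal ryanodine receptor, had 4, 0, 0 and 6 counts in WT, 6, 32, 13 and 4 in TA and 8, 34, 142 and 92 in TD. Only the TD libraries were all above WT, with a log2 fold change of 4.81 (SE 0.94).

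The voltage sensor that opens the ryanodine receptor is encoded by Cacna1s and its gamma subunit by Cacng1. Each had 1 count over the 4 WT libraries, and they had 73 and 59 counts in TD, ratios of 78.9 (exact 95% interval 13.7 to 3159) and 63.8 (11 to 2561). Trdn, the triadin that ties calsequestrin to the receptor, had 0 counts in each WT library, 1, 8, 3 and 0 in TA and 4, 23, 56 and 24 in TD, at least 9.48-fold higher in TD when WT is set at 3 counts per library. The calcium-storing calsequestrins were both measured, fast Casq1 at 3 to 8 counts in WT and 11 to 200 in TD, and Casq2, of slow fibres and heart, at 1 to 5 and 17 to 151. Chrna1, the acetylcholine receptor subunit of the endplate, had 0 to 6 counts in WT, 2 to 36 in TA and 6 to 108 in TD. In each of these 6 genes the TD libraries lay above those of WT after scaling to library size. For Cacna1s and Cacng1 this rests on 1 count in TD replicate 1 and 1 in WT replicate 1 (0.0568 and 0.0519 CPM). For Chrna1 it rests on 6 counts in TD replicate 1 and 6 in WT replicate 2. Ckm, the muscle creatine kinase that buffers ATP, had 5, 0, 0 and 0 counts in WT, 3, 18, 2 and 1 in TA and 0, 21, 44 and 22 in TD, and overlapped in both comparisons, with TD replicate 1 at 0 and TA replicates 1, 3 and 4 at 0.175, 0.111 and 0.0556 CPM below WT replicate 1 at 0.259.

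**Figure D2:**
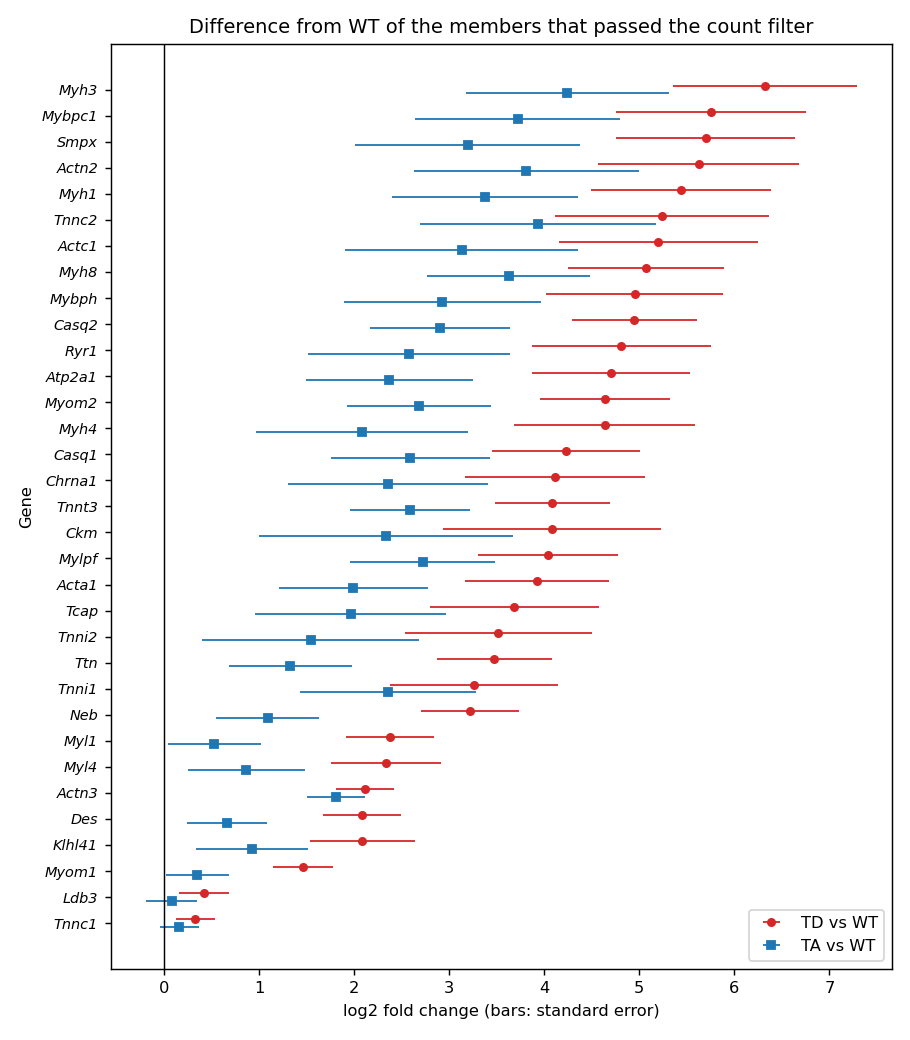
Log2 fold change over WT (horizontal axis, bars for the standard error) of the 33 genes that passed the count filter, in TD (circles) and TA (squares), from edgeR. All points lie above 0, from Tnnc1 and Ldb3 at the low end to Myh3 at 6.32 in TD, and the values for Tnnc2 and Smpx rest on 3 and 2 WT counts.

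Counted over the whole set, the TD libraries lay above the WT libraries without overlap for 26 of 42 genes, and the TA libraries above WT for 19. Among the 26, the lowest TD and highest WT library had equal counts in Actc1, Tnnc2, Atp2a1, Cacna1s, Cacng1, Tcap, Klhl41 and Chrna1. These genes were apart from WT only through library size. Among all tested genes 15.8% lay higher without overlap in TD and 7.71% in TA. No member lay lower without overlap, where 16.4% of all tested genes did in TD and 5.85% in TA. Between TD and TA all 42 genes overlapped, where 9.32% of all tested genes lay higher and 10.6% lower in TD without overlap. The shares of all genes are of those that passed the count filter, and the members include 9 that did not. The filter on low counts passed 33 of the 42 genes and left out 9 (Myh7, Tnnt1, Myh2, Mylk2, Mybpc2, Cacna1s, Cacng1, Trdn, Xirp1). By edgeR at an adjusted p under 0.05, 31 of the 33 were higher in TD than in WT (against 15.1% of all tested genes), 10 were higher in TA than in WT (6.72%) and 13 were higher in TD than in TA (7.33%). None was called lower, where the shares of all genes were 14.2%, 4.41% and 9.37%. These levels chose the set, and some genes passed the filter only through the mutant libraries, since 21 members passed when TD and WT were fitted alone and 19 when TA and WT were. The calls are thus a description, and nothing is read from them beside the shares. The median log2 fold change of the 33 genes was 4.08, 2.35 and 1.81 in the 3 comparisons, against 0.011, -0.0056 and 0.023 for all tested genes.

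The counts of called genes leaned on single libraries. Between TD and TA 13 members were called. The number was 1 without TD replicate 3, 6 without TD replicate 4, 4 without TA replicate 1 and 5 without TA replicate 4. It rose to 27 without TD replicate 1 and to 20 without TA replicate 2. Calls of all genes in either direction numbered 2524 in the main fit. At the settings just named, in that order, they numbered 1586, 1432, 1883, 2159, 2447 and 1422. In TA over WT the count was 3 without WT replicate 3, 5 without WT replicate 2, WT replicate 4 or TA replicate 2, 6 without WT replicate 1 or TA replicate 3, and 16 without TD replicate 1. The 3 without WT replicate 3 were of 35 members tested, beside 1343 of 15369 genes called. Over all genes 1683 were called in the main fit and 1160 to 1939 when a library was left out. Leaving out both TD replicates 3 and 4 was an alternative added after the data had been seen. Of 34 members then tested, 17 were called in TD over WT, 16 in TA over WT and 0 in TD over TA. Calls of all genes were 1516, 1488 and 634 of 15673.

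By class, the 4 developmental genes summed to 1.48 ± 0.62 CPM (SD, n = 4) in WT, 8.85 ± 5.09 in TA and 28.4 ± 24.3 in TD. Slow genes, 6 in number, summed to 4.36 ± 0.69, 9.96 ± 4.18 and 25.8 ± 21.5 CPM, and most of the WT amount was Tnnc1. The 13 fast genes summed to 10.0 ± 3.26, 42.6 ± 23.9 and 134 ± 112 CPM, and the 19 shared genes to 16.0 ± 3.14, 33.3 ± 16.6 and 106 ± 81.8. The 4 classes thus went up through the same libraries in about the same order. As a share of the summed counts of the 42 genes, fast genes made up 30.8% ± 3.93 in WT, 44.5% ± 1.48 in TA and 44.2% ± 2.90 in TD, and developmental genes 4.64% ± 2.05, 9.13% ± 1.52 and 8.93% ± 1.51. Both shares differed between TA and TD by less than the spread between libraries although the totals differed up to 11.2 times within TD alone. The slow share was 14.1% ± 3.31 in WT, 10.9% ± 1.07 in TA and 8.80% ± 0.602 in TD. This is a fall of a share only, since the slow sum rose. Tnnc1, most of the WT amount, stayed at 55 to 78 counts in WT and 53 to 101 in TD. Of the other slow genes, Mybpc1, Tnni1 and Casq2 had log2 fold changes of 5.75, 3.26 and 4.95 in TD over WT. The remaining slow members, Tnnt1 and Myh7, did not pass the filter, and their TD libraries overlapped WT. Summed over the libraries of a genotype, Tnnt1 went from 18 (WT) to 39 (TD) and Myh7 from 0 to 3. The rise of the slow sum thus did not rest on these genes.

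**Figure D3:**
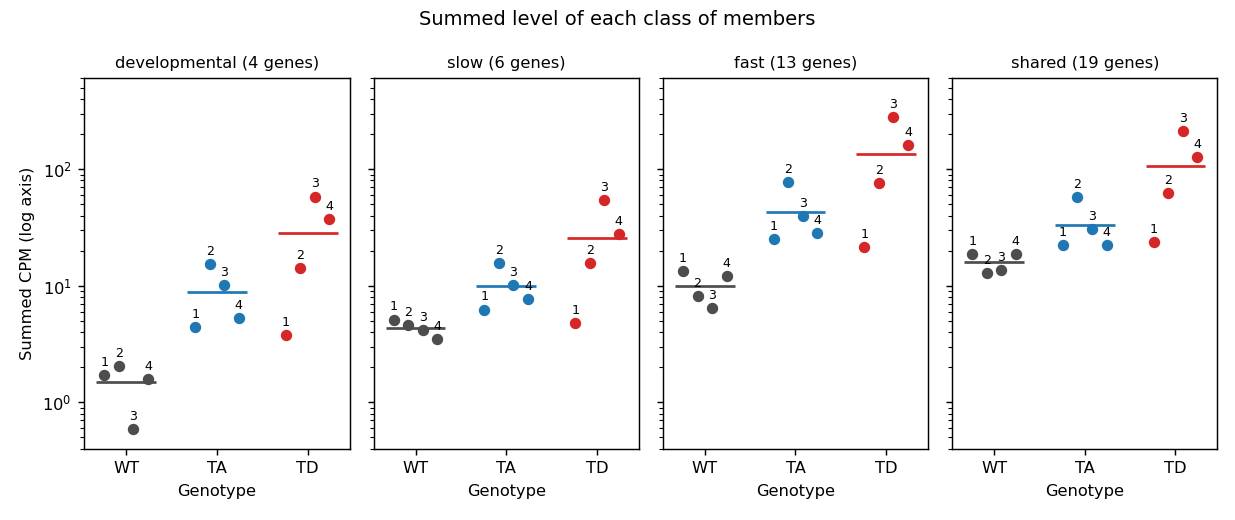
Summed CPM (log axis) of the developmental, slow, fast and shared genes in each library, 1 point a library with its replicate number and a line at the mean of the genotype. In every class TD replicate 3 is highest and TD replicate 1 the lowest of TD, and TA replicate 2 is the highest of TA.

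Heavy chain make-up was compared as shares of the counts on Myh1, Myh2, Myh3, Myh4, Myh7 and Myh8 within a library, which do not depend on library size. These genes had 88, 5, 0 and 50 counts in the WT libraries, 156, 688, 334 and 169 in TA and 143, 725, 3142 and 1630 in TD. Myh1 took 64.3%, 66.3%, 70.1% and 64.1% of them in TD, with Wilson 95% intervals from 56.2% to 71.7% for TD replicate 1 and 68.5% to 71.7% for TD replicate 3. In TA Myh1 took 66.0%, 69.0%, 53.9% and 56.2%. The genotype means of 66.2% ± 2.77 in TD and 61.3% ± 7.37 in TA (SD, n = 4) overlapped.

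The developmental genes Myh3 and Myh8 took 33.6%, 29.0%, 25.9% and 29.3% of heavy chain counts in TD and 29.5%, 27.9%, 43.4% and 39.1% in TA. The means were 29.4% ± 3.15 and 35.0% ± 7.48, which overlapped, and per kilobase of exon they were 24.3% and 27.5%. The union of exons is 11772 bases for Myh8, 6057 for Myh3, 6353 for Myh1 and 6016 for Myh4. The values per kilobase are lowered by that length of Myh8. In WT the share of counts was 21.6% (Wilson 95% interval 14.3% to 31.3%) in replicate 1, 80.0% (37.6% to 96.4%) of 5 counts in replicate 2 and 24% (14.3% to 37.4%) in replicate 4, and replicate 3 had no heavy chain count. With the libraries of a genotype summed, WT stood at 24.5%, TA at 33.3% and TD at 27.5%. The intervals of WT replicates 1 and 4 overlapped those of all 4 TD libraries, so no difference in make-up was detectable there at this depth. Slow Myh7 gave 3 of 5640 heavy chain counts in TD, and Myh2 at most 1.24% of a TD library's.

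**Figure D4:**
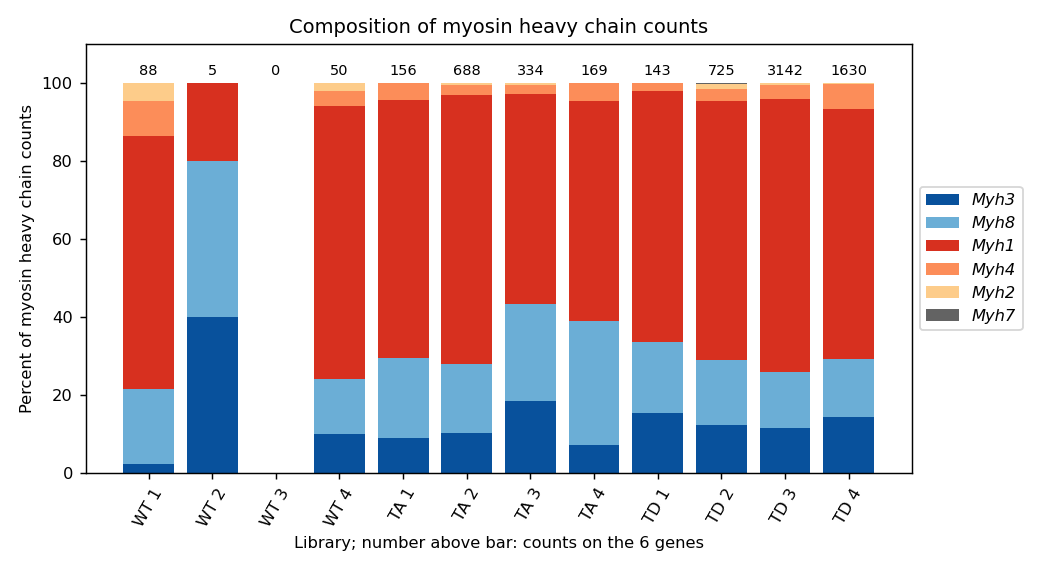
Share of heavy chain counts on each of 6 genes (stacked, percent) in each library, with the number of counts above the bar. Myh1 fills the greater part of every TA and TD bar and Myh3 plus Myh8 most of the rest, and WT replicates 2 and 3 rest on 5 and 0 counts.

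Within a genotype the genes moved together across libraries. The ratio of TD replicate 3 to TD replicate 1 had a median of 15.9 over the 38 genes with a count in the latter, from 1.79 (Tnnc1) to 136 (Actn2), where all tested genes had a median of 1.00 and a 5th to 95th percentile of 0.642 to 1.60. After subtraction of the genotype means, the median Pearson r between log2 CPM of 2 of the 33 genes was 0.789 over 528 pairs and 12 libraries, and 241 pairs were above 0.8. It was 0.977 within TD alone, 0.793 within TA and 0.229 within WT. The points share their libraries, and a few libraries carry them, since without TD replicate 1 the median was 0.632. Lists of cell markers measured the same way gave 0.772 for adipocyte, 0.938 for macrophage, 0.712 for fibroblast, 0.756 for endothelial and 0.471 for smooth muscle genes. Mybpc1 (0.969), Des (0.966) and Myl1 (0.964) followed the mean of the other members most closely within genotypes, and Myom1 (0.610), Tnnc1 (0.675) and Ldb3 (0.688) least.

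The order of levels per length showed which members make up the signal. In TD the highest were Acta1 at 15.3 ± 13.4 CPM per kilobase of exon, Myh1 at 8.25 ± 7.71, Mylpf at 7.90 ± 6.59, Atp2a1 at 7.13 ± 6.48, Myl1 at 6.99 ± 4.71 and Des at 5.50 ± 4.15, and no neighbours in this order differed beyond their spread. In WT the order was another, with Tnnc1 at 3.38 ± 0.35 CPM per kilobase, Myl1 at 1.35 ± 0.27, Des at 1.30 ± 0.24, Actn3 at 1.10 ± 0.17 and Acta1 at 1.02 ± 0.56. Only Tnnc1 stood clear of its neighbour there. Of the 42 genes 9 had at least 10 counts in every WT library (Myl4, Tnnc1, Myl1, Actn3, Acta1, Neb, Des, Myom1, Ldb3), and 21 had none in WT replicate 3.

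Other genes of the contractile apparatus, coupling, endplate, energy supply and sarcolemma were listed from general knowledge. The list was made with earlier results of these data known. It holds 96 genes, of which 59 were tested, and some of these passed the filter on low counts only through the mutant libraries. The calls on them are thus a description beside the shares. Of these, 23 rose and 6 fell in TD relative to WT (edgeR's quasi-likelihood test, adjusted p under 0.05, against 15.1% and 14.2% of all tested genes), with a median log2 fold change of 0.33. By group the rises were 16 of 29 sarcomere genes, 4 of 14 coupling genes, 1 of 5 endplate genes, 1 of 7 energy genes and 1 of 4 sarcolemma genes. The largest were Tnnt2, troponin T of heart and forming muscle (adjusted p = 0.000424), Lmod2, a leiomodin that nucleates actin (adjusted p = 0.000390), and Myot, the Z-disc protein myotilin (adjusted p = 0.000836). Their WT libraries held 2, 2 and 3 counts in all, and the ratios of TD to WT counts per library size were 121 (exact 95% interval 33.1 to 1006), 111 (30.4 to 925) and 58.0 (19.5 to 284). In these 3 genes the TD libraries lay above WT, from 5 to 108 counts for Tnnt2. All 3 passed the filter on low counts only through the mutant libraries, so their p-values are no independent test. The falls were smaller, led by Dysf, the membrane repair protein dysferlin (log2 fold change -0.66, SE 0.13, adjusted p = 0.00194), with Hspb7 (-0.56, adjusted p = 0.00450) and Sgcd (-0.55, adjusted p = 0.00298), and each of these was lower in 4 of 4 TD libraries.

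In TA over WT, 4 of the 59 genes were higher and 6 lower, where 6.72% and 4.41% of all tested genes were. Tnnt2 rose (2 WT counts and 58 TA counts, adjusted p = 0.0201 by edgeR), with Xirp2 (log2 fold change 3.11, SE 0.94, adjusted p = 0.0420) and Srl, the calcium-binding sarcalumenin (0.45, SE 0.13, adjusted p = 0.0369). Tnnt2 and Xirp2 passed the filter only through the mutant libraries. The calls on these rises were lost in several fits that left out 1 library, while the log2 fold changes stayed positive. Tnnt2 had an adjusted p of 0.0519, 0.0562 and 0.0538 by edgeR without WT replicate 2, 3 or 4. Srl had one of 0.0628 to 0.115 without WT replicate 1, 2 or 3 or TA replicate 1 or 2. Xirp2 had one of 0.0552 to 0.106 without any 1 WT library, TA replicate 2 or TA replicate 3. The falls of Dysf (-1.43, adjusted p = 5.68e-06), Sgcd (-0.97, adjusted p = 7.70e-05) and Hspb7 (-0.85, adjusted p = 0.000483) were in 4 of 4 TA libraries, and the median over the 59 genes was 0.089. In TD over TA, 14 were higher and 1 lower, where 7.33% and 9.37% of all tested genes were. The largest rises were Lmod2 (2.64, adjusted p = 0.0168 by edgeR), Myot (2.43, adjusted p = 0.0314) and Pdlim3, an actinin-binding Z-disc protein (2.16, adjusted p = 0.0325), and the TD and TA libraries of each overlapped. All 3 genes passed the filter on low counts only through mutant libraries, TD replicates 2, 3 and 4 among them. Their p-values are thus no independent test. Lmod2 lost its call without TD replicate 3, TA replicate 1 or TA replicate 4 (adjusted p = 0.0509 to 0.0767), and Myot and Pdlim3 lost theirs without TD replicate 3, TD replicate 4, TA replicate 1 or TA replicate 4 (adjusted p = 0.0768 to 0.133). The fall was that of Srl (-0.51, adjusted p = 0.0164), lost without TA replicate 1 or 2 or TD replicate 2 or 4 (adjusted p = 0.0510 to 0.0559).

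Among all remaining tested genes, 10 followed the mean standardized log2 CPM of the 33 members most closely over the 12 libraries, a description over points that share genotype and library. They were Trim72 (Pearson r 0.969), a muscle membrane repair protein, Myog (0.968), the myogenin that drives terminal differentiation of muscle, Plekha4 (0.931), the imprinted RNA H19 (0.926), Slc2a10 (0.900), Ifi207 (0.889), Kif4 (0.877), Cxcl9 (0.876), Sp110 (0.876) and Tgm4 (0.875). Myog had 0 counts in each WT library, 4, 18, 5 and 4 in TA and 7, 22, 61 and 46 in TD, at least 12.2-fold higher in TD when WT is set at 3 counts per library. Trim72 had 2 to 6 counts in WT, 5 to 21 in TA and 11 to 58 in TD. H19 was at 32.7 ± 2.55 CPM in WT, 62.4 ± 18.5 in TA and 113 ± 40.4 in TD, and its WT libraries were thus close together, unlike those of most members.

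Markers of other cell types were summed beside the members. The 9 myogenic markers summed to 0.49 to 1.29 CPM in WT, 1.78 to 2.46 in TA and 3.29 to 10.1 in TD, and the order of the TD libraries was that of the members. The order of the TA libraries was not. There replicate 3 was lowest for this list (1.78 CPM), while for the members it (90.8 CPM) lay above replicates 1 and 4. Of the 9, Pax7 had no count in any library, Myod1 had at most 12 (TD replicate 4), Myf6 at most 23 and Mymk, needed for myoblast fusion, at most 44, both in TD replicate 3, and the gene of the list with most counts was Msc, which did not follow the members (46, 60, 38 and 14 counts in TD). By edgeR the 10 adipocyte markers, led by Fabp4, were lower in TD than in WT in 8 cases with a median log2 fold change of -0.53, and none was at 0. The 8 fibroblast markers, led by Col3a1, summed to 9667 to 13028 CPM in WT, 10908 to 19812 in TA and 17086 to 25071 in TD, with 6 higher in TD. The 5 endothelial markers, led by Pecam1, summed to 20.6 to 48.5, 43.5 to 77.4 and 90.0 to 118 CPM, all 5 higher in TD, and the 7 smooth muscle markers, led by Acta2, to 82.3 to 94.6, 95.1 to 150 and 122 to 152 CPM, 6 of them higher in TD. The 6 macrophage markers, led by Lyz2, summed to 258 to 722, 128 to 531 and 529 to 743 CPM. Of these 1 was higher in TD, near the share of all tested genes. Those shares were 15.1% higher and 14.2% lower in TD over WT. In TA over WT, 5 fibroblast, 3 endothelial and 1 smooth muscle markers were higher by edgeR, and none was lower. Of the adipocyte markers 1 was higher and 1 lower in TA, and no macrophage marker was called. Among all tested genes 6.72% were higher and 4.41% lower in TA. Between TD replicates 3 and 1 these lists differed by 0.89 (adipocyte), 1.35 (fibroblast), 1.05 (smooth muscle), 0.91 (endothelial) and 0.75 times (macrophage), where the members differed by 11.2 times and the myogenic markers by 3.07 times. Of 8 cardiac markers, the defining Myh6, Myl7, Nppa, Nppb and Mybpc3 had at most 3 counts in any library, and Tnnt2, which forming skeletal muscle shares, had the highest CPM of the list. Cardiac troponin I, Tnni3, had 7 to 18 counts in WT, 8 to 17 in TA and 20 to 36 in TD, and was higher in all 4 TD libraries than in WT (log2 fold change 1.39, SE 0.36, adjusted p = 0.00909 by edgeR). The part of the differing amounts of these cell types in the levels of the members was not tested.

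**Figure D5:**
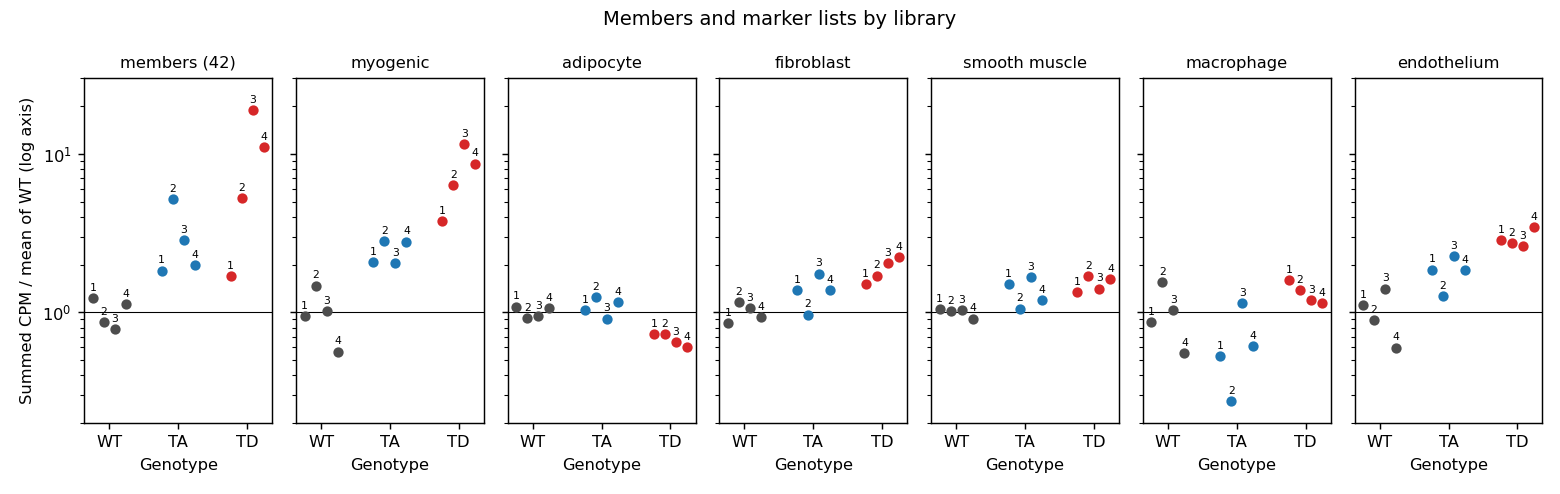
Summed CPM of the 42 genes and of 6 marker lists in each library relative to the mean of WT (log axis), 1 point a library with its replicate number. The members and the myogenic list spread widely within TD with replicate 3 highest, and the other 5 lists stay within 1.47 times among the TD libraries.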

How the data were processed

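RNA of cultured adipocytes was measured in 12 libraries, 4 each of WT, TA and TD, grouped by the genotype in the sample labels. Libraries were sequenced on a NovaSeq instrument, and the submitters' processing notes name bcl2fastq 2.17.1.14, cutadapt 1.9.1, HISAT2 2.0.1 and HTSeq 0.6.1 with the mouse build GRCm38. The deposited values are raw counts per gene, which the authors made from aligned reads without normalization. Whether counting used strand is not given in the sources used here, so reads of overlapping antisense genes cannot be told apart. The counts per library in the table and in the 12 single files were equal.

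Counts were scaled by TMM and fitted in 1 model of all 12 libraries with edgeR 4.0.16 (quasi-likelihood test, R 4.3.3, common biological coefficient of variation 12.9%). Of 55573 genes 15117 passed the filter (minimum count 10, minimum total 15). Adjusted p is by Benjamini and Hochberg over all tested genes, with a threshold of 0.05, and a standard error is on the log2 scale. The fit was tested on simulated data for TD against WT (200 genes of 15117 changed), where it recovered 77.4% of genes changed by 1 on the log2 scale and 91.4% of those changed by 2, and 8.06% of its calls were false. The authors' methods name DESeq2, which was run as an alternative (1.42.0), and other normalizations, no filter, an added fold threshold, fits of 2 genotypes, a replicate block and leaving out each library were tried as well.

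Levels per kilobase used the union of GENCODE exons, log2 CPM used a prior count of 2, and promoter windows came from RefSeq. The members, the lists of other muscle genes and of cell markers, and the rules for naming genes were chosen with earlier results of these data known. Values in each library are given for the main member of each role and for members that depart from their class. Of the other muscle genes, up to 3 with the largest rise and 3 with the largest fall among those called are named in each comparison, and of all remaining genes the 10 with the highest correlation with the members. Depth limits genes of a few counts, and intervals cover counting error only. Same-numbered libraries correlated by -0.237 to 0.196 across genotypes, so the numbers were not taken as pairs.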

Additional observations from a re-analysis of the deposited data

Results flagged for a closer look

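In each group of 4 libraries, the highest or the lowest value was compared with the nearest of the others by Dixon's ratio, for the 33 tested members, the summed members and the heavy chain share. Of 105 groups examined, 10 held a library apart from the rest. A chance rate of about 1 in 20 holds for independent, normally distributed groups. The members share libraries and moved together, so the 10 cannot be set against that rate. In TA the library was replicate 2 each time, at 3.26 CPM for Myl4 (next 1.39), 1.05 CPM for Myh4 (next 0.445), 8.06 CPM for Myl1 (next 3.06), 1.35 CPM for Tnni2 (next 0.167), 4.49 CPM for Neb (next 2.73), 1.11 CPM for Ckm (next 0.175) and 0.615 CPM for Smpx (next 0.223). TA replicate 2 was also the highest TA library for 36 of the 42 genes. In WT it was replicate 2 for Myl4 at 1.79 CPM (next 0.767) and for Tnnc2 at 0.149 CPM, and replicate 1 for Ckm at 0.259 CPM, both of the latter with 0 in the other 3 libraries and resting on 3 and 5 counts.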

How the results depend on the processing

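The count of members called higher in TD than in WT (31) was 19 when only those genotypes were fitted, where fewer members passed the filter, and 17 without TD replicates 3 and 4. For TA over WT (10) it was 28 with no filter on low counts and 16 without TD replicates 3 and 4, and for TD over TA (13) it was 33 with no filter, 8 with DESeq2 and 0 without TD replicates 3 and 4. With no filter 42 members were tested, and 2314 (TA over WT) and 3097 (TD over TA) of 29115 genes were called. Leaving out each library gave 28 to 33, 3 to 16 and 1 to 27 members, of 33 to 36 tested. Calls of all genes were then 3121 to 4705, 1160 to 1939 and 1422 to 3526. Of the other muscle genes, the 23 rises in TD over WT became 14 with a log2 fold change above 1 as well and 7 without TD replicates 3 and 4. For TA over WT (4) the count was 2 with that fold, 17 with no filter, 2 with only those genotypes and 10 with DESeq2, and for TD over TA (14) it was 3 with that fold, 25 with no filter and 2 without TD replicates 3 and 4. Leaving out each library gave 16 to 25, 1 to 8 and 4 to 19. With the replicate number as a block, members called were 31, 12 and 10 and other muscle genes 21, 2 and 14 in the 3 comparisons, and Srl and Xirp2 in TA over WT (adjusted p over 0.05, edgeR) and Myot in TD over TA lost their calls. Srl in TD over WT, not called, changed sign from -0.06 to 0.011 with library totals alone, and lay between -0.20 and 0.0086 when a library was left out. Library totals alone moved the median of all genes in TD over TA from 0.023 to 0.10. The developmental share of heavy chain counts per kilobase was 27.5% in TA and 24.3% in TD, and without single libraries the share per count was 32.1% to 37.3% in TA, 28% to 30.6% in TD and 22.8% to 52.0% in WT. The median correlation of members within genotypes was 0.632 to 0.825. Of single members' values 736 of the alternatives moved by less than their spread and 54 by more, and no called fold change of a member named with values in every library turned. Without TD replicates 3 and 4, log2 fold changes in TD over TA that were not called turned to -0.07 for Myh8, -0.36 for Mylpf and -0.86 for Actc1. Where no alternative's construction shows it, the cause was not tested.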
